A study of Mus musculus with 30 samples.

Results

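Genes for splicing factors of the SR, hnRNP, Sm/snRNP, SF3 and LSm families were followed in 5 clones of mouse embryonic stem cells (ESCs). They were taken by their names on the array, those starting with Sfrs or Srsf and a digit, Hnrp or Hnrnp, Snrp, Sf3a or Sf3b, or Lsm and a digit, leaving out Snrpn. The names matched 64 genes with 103 probes. Of these, 56 genes had a probe detected (p under 0.05) on 3 or more of the 30 arrays, among 11177 genes that passed the same rule, and the brightest passing probe stood for each gene. The 56 were 14 SR proteins and SR-named genes, 16 hnRNP genes, 7 Sm and snRNP genes, 8 SF3a and SF3b genes and 11 LSm genes. Of the 56, 47 were detected on all 30 arrays, and Lsm11 passed with the fewest, 7. The other 8 (Snrpb2, Lsm1, Hnrpa3, Hnrnpr, Sfrs10, Snrpe, Hnrpd and Sfrs15) were detected on 0 of 30 arrays. Names are those printed for the array. Hnrnpc and Hnrpc are now 1 gene, Hnrnpc, so the 56 names stand for 55 genes.

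The spliceosome removes introns from pre-mRNA. Its small nuclear ribonucleoproteins (snRNPs) are built on rings of Sm proteins, or of LSm proteins in the case of U6, and the SF3a and SF3b complexes belong to the U2 snRNP, which marks the branch site. SR proteins bind exons and promote splicing in a way that depends on phosphorylation of their serine- and arginine-rich tails, and hnRNP proteins coat the transcript and often oppose them. ESCs express this machinery strongly, and alternative splicing changes when they differentiate.

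The cells were Ainv15 ESCs, a line with a doxycycline-inducible locus, kept on fibroblast feeders and, by the methods, grown without them for RNA. In each rescue clone a lentiviral shRNA depleted 1 endogenous mRNA, and doxycycline (Dox, 1 µg/ml) switched on a copy of the same gene that the shRNA could not reach. The targets were Bub1b, a mitotic spindle checkpoint kinase, Chek1, a DNA damage checkpoint kinase, Ppm1g, a phosphatase found with the spliceosome, and Ppp2r1b, a scaffold subunit of protein phosphatase 2A, and Ctrl_R was the control clone. By their record numbers the Ctrl_R arrays came from an earlier deposit than the 24 arrays of the targeted clones. RNA was taken with Dox or after 5 days without it, on 3 arrays for each clone and condition. By the methods, several independent clones were made for each gene and experiments were repeated, but which clone or culture gave each array is not given in the sources used here. A p-value therefore measures the spread between these arrays, which may be technical, and clone below means the arrays of 1 label. In bulk RNA, fewer cells of a type and less RNA per cell cannot be told apart.

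None of the 4 targeted genes is one of the 56, and the question was what Dox withdrawal in their clones did to the mRNAs of the splicing machinery. The sequences of the 4 shRNAs are shown because they define the clones. Those for Bub1b and Chek1 lie outside the rescue copy, and the rescue copies of Ppm1g and Ppp2r1b carried silent changes.
Bub1b shRNA: gcacacttagacacatcagca
Chek1 shRNA: cccatgtagtagtatcacttt
Ppm1g shRNA: gccttgtactgtgccaaatat
Ppp2r1b shRNA: gctccgtctcaacagtattaa

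The targeted genes served as a check of the labels. Ppm1g read 9.76, 9.76 and 9.82 with Dox in Ppm1g_R and 8.61, 8.40 and 8.59 without it, in log2 units of background-corrected and quantile-normalised signal. All 3 arrays without Dox lay below all 3 with it, a fall of 1.25 on the log2 scale (SE 0.10, adjusted p = 4.5e-09). Bub1b in Bub1b_R read 9.82, 9.84 and 9.87 with Dox and 9.72, 9.64 and 9.75 without (log2 change -0.14, adjusted p = 0.217), and it was 0.67 lower than in Ctrl_R without Dox (log2 change -0.67, adjusted p = 1.0e-07). Ppp2r1b in its own clone read 6.23, 6.20 and 5.84 with Dox and 6.16, 6.49 and 6.21 without (log2 change 0.20, adjusted p = 0.365), and it was not shown to differ from Ctrl_R without Dox (log2 change -0.25, adjusted p = 0.158). Chek1 went against its label. It was not detected on any of the 3 arrays labelled Chek1_R with Dox (5.32, 5.20 and 5.40) and read 6.08, 6.24 and 5.72 without Dox, at least 1.35-fold higher when the lowest detected signal stands for the undetected value (adjusted p = 0.00115). Without Dox it was still below Ctrl_R (log2 change -1.07, adjusted p = 3.1e-06). A probe that lies outside the rescue copy reads the endogenous mRNA alone and checks only the shRNA, and the probes' positions were not analysed here. Ppm1g_R was therefore the clone in which withdrawal lowered the measured target, and every direction given below for the arrays labelled Chek1_R stands under this doubt. Other genes ran as labelled there. The early differentiation marker T (brachyury) averaged 6.41 with Dox and 10.85 without it on these arrays, and it was higher without Dox in the other 3 targeted clones too, and Fgf5 averaged 5.78 and 8.20.

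Withdrawal of Dox changed 0 of 56 splicing factors in each of the 5 clones, by an adjusted p under 0.05 and a change of at least 1.5-fold in limma. Over all 11177 genes, the share that changed was 6.24% in Bub1b_R, 9.92% in the arrays labelled Chek1_R, 4.63% in Ppm1g_R, 4.97% in Ppp2r1b_R and 1.15% in Ctrl_R. The median log2 change of the 56 was 0.03, 0.05, 0.00, -0.06 and 0.04 in that order, beside -0.01, -0.02, -0.01, -0.01 and -0.01 for all genes. Among members detected in both conditions of a clone, the largest differences were -0.47 for Lsm14b in Bub1b_R and 0.50 for Hnrpu, a nuclear scaffold protein, in Ppp2r1b_R, where it was detected on 1 of 3 arrays with Dox and 2 of 3 without. In Ctrl_R Hnrpu was not detected with Dox, and its mean level without Dox was about that of the lowest detected signal. For 50 of 56 members in Bub1b_R, the arrays labelled Chek1_R, Ppp2r1b_R and Ctrl_R, and 52 in Ppm1g_R, the 95% confidence interval of the change lay wholly within 1.5-fold. That was 89.3% of members in those 4 clones and 92.9% in Ppm1g_R, beside 75.6% of all genes in Bub1b_R, 77.3% in Ppm1g_R, 76.3% in Ppp2r1b_R, 84.3% in Ctrl_R and 71.6% in the arrays labelled Chek1_R. The median SE was 0.07 for members and 0.11 for all genes. At an unadjusted p under 0.05 and any size, 19, 25, 19, 20 and 14 members passed in the 5 clones in the same order. The share of all genes at that limit is not given here, so these counts have no background. By the methods' t-test before adjustment, 24, 19, 11, 14 and 14 members passed, beside 4959, 5461, 4312, 3696 and 2713 of 15151 probes. The methods' t-test with both limits also called 0 in each. The methods name a t-test for experiments in general, and for the arrays they refer to earlier work. Here it was run on the values normalised here, without sharing the spread between probes. The sources used here do not say that it was the study's test for the arrays.

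**Figure D1:**
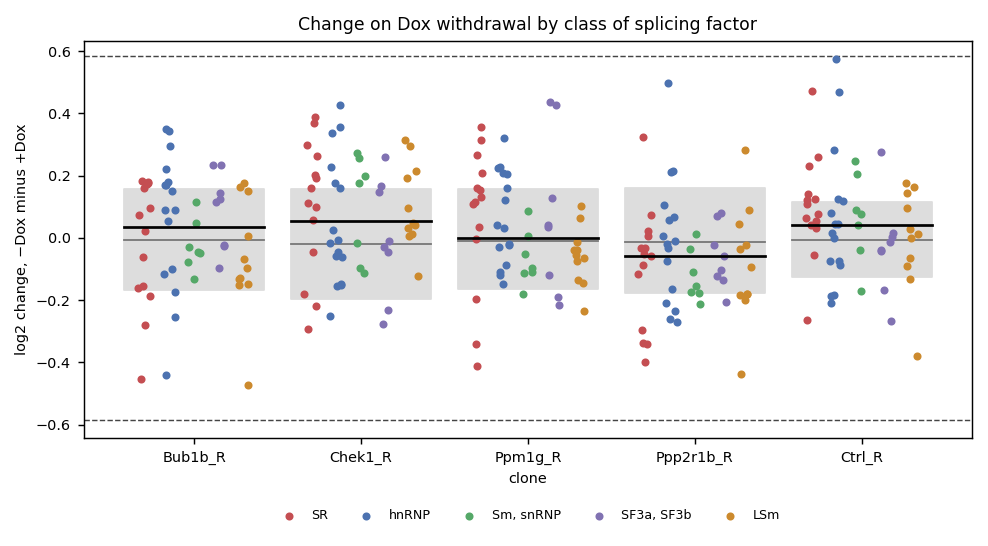
Log2 change on Dox withdrawal (no Dox minus Dox) of each of 56 splicing factors, 1 point a gene coloured by family, by clone. Black lines are member medians, grey boxes and lines the quartiles and median of all 11177 genes, and dashed lines mark 1.5-fold; medians lie between -0.06 and 0.05 and no point passed both limits.

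Leaving out 1 array gave a single call in 2 clones. Without replicate 2 of Bub1b_R without Dox, Lsm14b fell by 0.60 on the log2 scale. In Ppp2r1b_R, Hnrpu was called when either replicate 2 was left out, with a detected value on at most 1 array with Dox, and Sfrs12ip1, now Srek1ip1, rose by 0.63 without replicate 3 with Dox.

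The brightest member of each family illustrates the size of the differences. Hnrnpc, which binds uridine tracts of nascent transcripts, differed on withdrawal by between -0.07 and 0.06 over the 5 clones. The dimmer entry for the same gene, printed as Hnrpc, ranged more widely, from -0.27 to 0.09, and passed the adjusted p alone in 1 clone. Sfrs2, the SR protein SC35, differed by between -0.09 and 0.18. Snrpd2, a core Sm protein, ranged from -0.18 to 0.05. Lsm4, a member of the ring on U6, ranged from -0.14 to 0.01, and Sf3b2, a U2 subunit, from -0.23 to 0.07. Each of these ranges is narrower than a 1.5-fold change in either direction, which is 0.585 on the log2 scale. Of the genes in the families for which the study lists shRNAs, 8 passed the detection rule (Lsm2, Lsm4, Sf3a3, Sf3b3, Snrpb, Snrpd1, Snrpd2 and Snrpd3), and 0 of the 8 changed on withdrawal in any clone. The same list names Snrpe, which was not detected, and Snrpa1, which was not analysed here.

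Smaller differences passed the adjusted p alone. In Bub1b_R 6 were higher and 4 lower without Dox, where 12.6% and 14.2% of all genes passed. In the arrays labelled Chek1_R 15 and 3 did (all genes 15.3% and 18.2%), in Ppm1g_R 7 and 4 (12.7% and 12.7%), in Ppp2r1b_R 1 and 12 (12.9% and 14.0%), and in Ctrl_R 5 and 0 (4.34% and 4.04%). In both directions together that was 17.9%, 32.1%, 19.6%, 23.2% and 8.93% of the members. These splits depended on the arrays in the fit and on the scaling. Fitted only on the 6 arrays of a clone, they were 4 and 4, 10 and 2, 3 and 1, 0 and 0, and 1 and 0, so that all 13 members in Ppp2r1b_R no longer passed, and the adjusted p given here for any of those 13 rests on the spread shared by all 30 arrays. Of all 11177 genes, 1265 and 1388, 1536 and 1839, 993 and 998, 458 and 406, and 63 and 53 passed in that fit. In Ppp2r1b_R 1442 and 1564 genes had passed with all 30 arrays in the fit. With each array scaled to a common median in place of quantile normalisation, they were 4 and 3, 15 and 0, 0 and 7, 0 and 3, and 1 and 0, so that none of the 7 higher members in Ppm1g_R passed. Over all genes, 1496 and 946, 1986 and 1188, 731 and 1616, 882 and 793, and 217 and 121 passed under that scaling. In Ppm1g_R 1418 and 1420 genes had passed with quantile normalisation. Arrays with and without Dox did not overlap for 28, 28, 22, 19 and 17 of 56 members in the 5 clones, beside 43.8%, 46.6%, 39.5%, 34.0% and 27.5% of all genes.

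**Figure D2:**
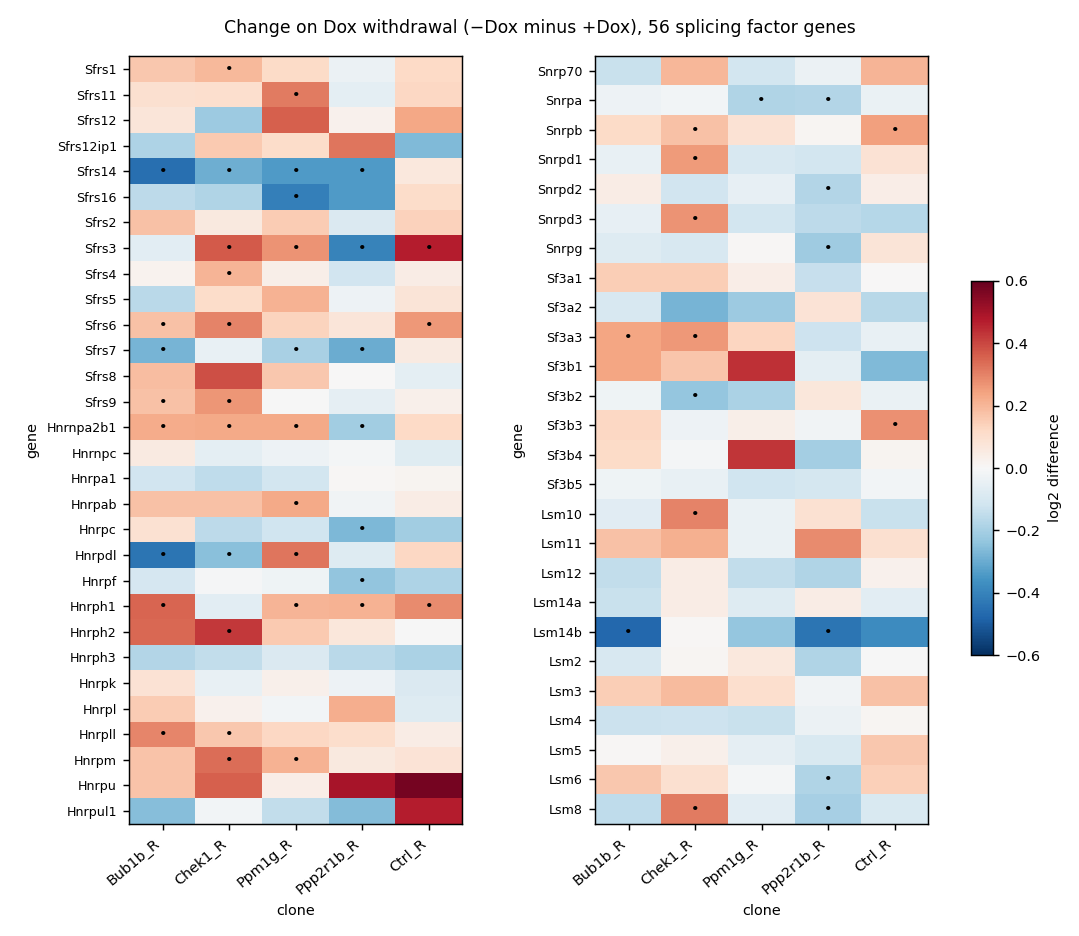
Log2 change on Dox withdrawal (colour, no Dox minus Dox) of 56 splicing factors by family (vertical) in 5 clones (horizontal). Dots mark an adjusted p under 0.05 at any size; no cell also reached 1.5-fold, and Sfrs14 is dotted and blue in all 4 targeted clones.

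Among the SR and SR-named genes, Sfrs14, now Sugp2, a protein with SURP and G-patch domains rather than a classical SR protein, was lower without Dox in all 4 targeted clones. In Ppm1g_R it read 10.66, 10.64 and 10.57 with Dox and 10.25, 10.20 and 10.39 without. In Bub1b_R it read 10.77, 10.69 and 10.79 with Dox and 10.23, 10.34 and 10.32 without. The 2 sets of arrays did not overlap in either clone. In Ppp2r1b_R it read 11.01, 10.92 and 10.85 with Dox and 10.57, 10.48 and 10.71 without. The arrays labelled Chek1_R read 10.91, 10.65 and 10.77 with Dox and 10.51, 10.41 and 10.53 without. Ctrl_R read 10.96, 11.05 and 10.89 with Dox and 10.99, 11.03 and 11.06 without. The sets did not overlap in the targeted clones and did in Ctrl_R. The log2 changes were -0.45 in Bub1b_R (SE 0.07, adjusted p = 3.8e-05), -0.34 in Ppm1g_R (0.00108), -0.34 in Ppp2r1b_R (0.00107) and -0.29 in the arrays labelled Chek1_R (0.00265). Relative to the change in Ctrl_R, in the same order, they were -0.52 (adjusted p = 0.00129), -0.40 (0.00958), -0.40 (0.0147) and -0.36 (0.0152). Fitted only on the arrays compared, the change in Ppp2r1b_R did not pass (adjusted p = 0.0758), and the other 3 did. Under median scaling the sign was negative throughout, but the withdrawal change in the arrays labelled Chek1_R did not pass (-0.18, adjusted p = 0.187), and relative to Ctrl_R that clone (-0.27, 0.237) and Ppp2r1b_R (-0.41, 0.128) did not.

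Sfrs3, now Srsf3, the smallest SR protein and one needed for ESC pluripotency, differed in opposite directions in 2 clones. In Ppp2r1b_R it read 8.86, 9.07 and 9.08 with Dox and 8.53, 8.59 and 8.70 without. In Ctrl_R it read 8.66, 8.57 and 8.63 with Dox and 9.18, 9.03 and 9.07 without. All arrays without Dox were lower in Ppp2r1b_R and higher in Ctrl_R, with no overlap in either (log2 changes -0.40 and 0.47, adjusted p = 3.7e-04 for both, and 0.0572 and 0.0478 fitted only on the arrays compared). The arrays labelled Chek1_R read 9.05, 9.15 and 9.22 with Dox and 9.51, 9.53 and 9.48 without, all higher without it (0.37, adjusted p = 4.7e-04). The difference between these changes, -0.87 (SE 0.11, adjusted p = 1.2e-05), was the 1 call among the 56 members for any clone relative to Ctrl_R, in which 5.56%, 9.60%, 5.56% and 3.42% of all genes changed in Bub1b_R, the arrays labelled Chek1_R, Ppm1g_R and Ppp2r1b_R. A second Sfrs3 probe gave -0.92 (adjusted p = 1.1e-04). In Ppm1g_R, Sfrs3 read 9.52, 9.63 and 9.71 with Dox and 9.72, 9.98 and 9.96 without, so the arrays without Dox were higher, by 0.27 (adjusted p = 0.0113, and 0.249 under median scaling), where the second probe gave 0.16 (adjusted p = 0.26). In Bub1b_R it read 9.40, 9.44 and 9.51 with Dox and 9.43, 9.34 and 9.39 without, which overlapped, and the change relative to Ctrl_R was -0.54 (adjusted p = 0.00146, and 0.0622 under median scaling).

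Relative to Ctrl_R, the other 3 clones had 0 of 56 members past both limits. By the adjusted p alone there were 1 higher and 4 lower in Bub1b_R (6.55% and 7.07% of all genes), 5 and 4 in the arrays labelled Chek1_R (9.26% and 10.8%), 0 and 1 in Ppm1g_R (6.59% and 6.50%) and 0 and 7 in Ppp2r1b_R (4.04% and 4.94%). Under median scaling these were 0 and 2, 4 and 0, 0 and 2, and 0 and 1. The 4 comparisons share the Ctrl_R arrays. Some arrays decided a call here. Hnrpdl in Bub1b_R reached -0.59 when the second array with Dox or the third array without it was left out, and also without replicate 3 of Ctrl_R without Dox. Hnrpul1, an hnRNP U-like protein, reached -0.87 without replicate 3 of Bub1b_R with Dox and -0.91 without replicate 3 of Ctrl_R with Dox, and in Ppp2r1b_R -0.98 without replicate 1 with Dox and -0.92 without the same Ctrl_R array. In Ppm1g_R, Sfrs16, now Clasrp, reached -0.61 without replicate 2 of Ctrl_R without Dox. Sf3b1, the SF3b subunit at the branch site, was called without replicate 1 of Ctrl_R with Dox, but it was not detected on any array of Ppm1g_R with Dox, so that no size is given.

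**Figure D3:**
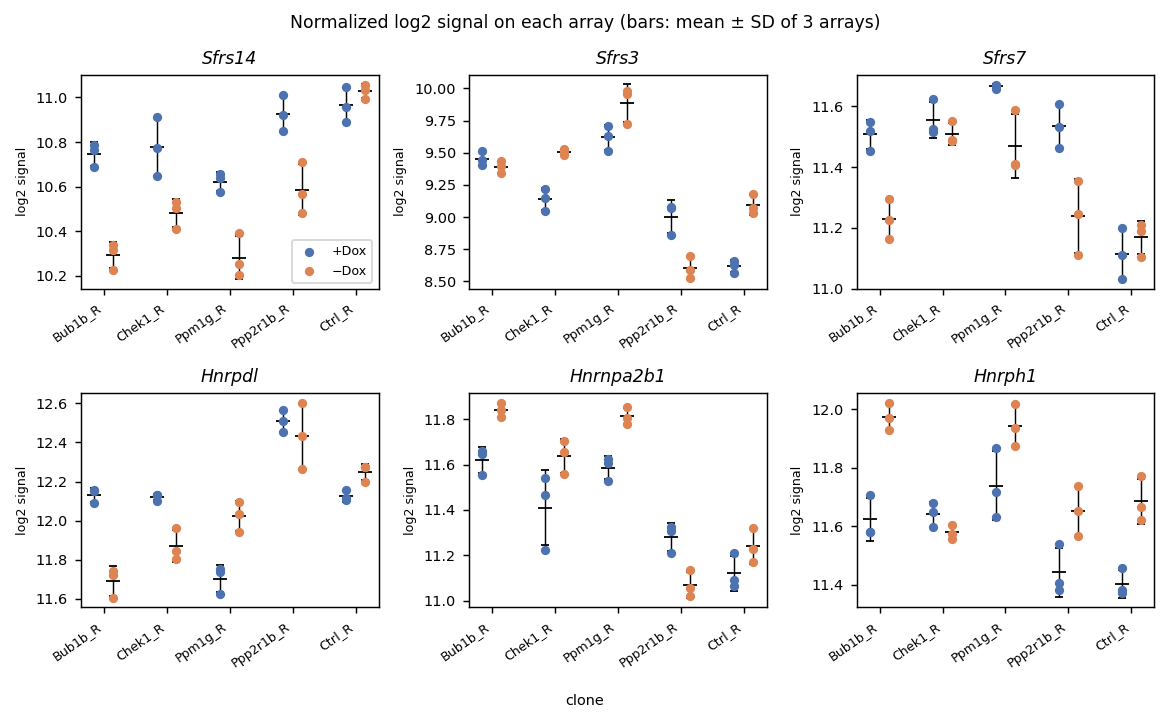
Log2 normalised signal of 6 splicing factors on each of 30 arrays (points; blue with Dox, orange without), by clone, with bars for mean and SD of 3 arrays. Sfrs14 separates by Dox in the 4 targeted clones and overlaps in Ctrl_R, and Hnrpdl is higher without Dox in Ppm1g_R and lower in Bub1b_R.

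Other SR genes differed by less. Sfrs7, now Srsf7, was lower in Bub1b_R (-0.28, adjusted p = 0.00263), Ppm1g_R (-0.20, 0.0328) and Ppp2r1b_R (-0.30, 0.00184), and none of the 3 passed under median scaling. Its values in Ppp2r1b_R were 11.46, 11.53 and 11.61 with Dox and 11.11, 11.25 and 11.36 without, which did not overlap. Sfrs6, now Srsf6, was higher in Bub1b_R (0.17, adjusted p = 0.0213), the arrays labelled Chek1_R (0.30, 1.6e-04) and also Ctrl_R (0.26, 0.00445), and it passed under median scaling in the second of these alone. In Ppm1g_R, Sfrs11 was higher (0.31, adjusted p = 0.00236) and Sfrs16, named for binding the SR kinase CLK4, was lower (-0.41, 0.0276). Under median scaling Sfrs11 did not pass (0.24, adjusted p = 0.153) and Sfrs16 did (-0.45, 0.0196). The 14 SR genes had a median change of 0.12 in Ppm1g_R, with 10 positive and 4 negative, and 0.09 in Ctrl_R, with 12 positive and 2 negative. Most of the 14 were also higher without Dox in the arrays labelled Chek1_R, so such a split was not particular to Ppm1g_R. Under median scaling the median change of all splicing factors together in Ppm1g_R was -0.10. That of the SR genes alone under that scaling is not given here.

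Of the 16 hnRNP genes, 5 were higher and 0 lower in Ppm1g_R by the adjusted p alone, where 12.7% of all genes passed in each direction, and none of the 5 passed under median scaling. Hnrpdl, or hnRNP D-like, which binds AU-rich RNA, read 11.74, 11.75 and 11.62 with Dox in Ppm1g_R and 12.04, 12.10 and 11.94 without. In Bub1b_R it read 12.15, 12.09 and 12.15 with Dox and 11.72, 11.61 and 11.74 without. The arrays without Dox were thus all higher in Ppm1g_R (0.32, adjusted p = 0.00134) and all lower in Bub1b_R (-0.44, 3.4e-05). The arrays labelled Chek1_R gave -0.25 (adjusted p = 0.00667). Under median scaling the change in Ppm1g_R was 0.18 (adjusted p = 0.181) and that in the arrays labelled Chek1_R -0.14 (0.301). The second probe for Hnrpdl gave 0.18 in Ppm1g_R (adjusted p = 0.396) and -0.07 in Bub1b_R (0.789).

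Hnrnpa2b1, which encodes hnRNP A2 and B1, was higher in Bub1b_R (0.22, adjusted p = 0.0209), the arrays labelled Chek1_R (0.23, 0.014) and likewise Ppm1g_R (0.23, 0.0195), and lower in Ppp2r1b_R (-0.21, 0.0288). It read 11.53, 11.62 and 11.61 with Dox in Ppm1g_R and 11.78, 11.85 and 11.80 without. In Ppp2r1b_R it read 11.30, 11.21 and 11.32 with Dox and 11.13, 11.05 and 11.02 without. The arrays did not overlap in either clone, on opposite sides, and neither change passed under median scaling (0.10, adjusted p = 0.546, and -0.19, 0.226). The second Hnrnpa2b1 probe, detected on all 30 arrays, did not share the opposite signs, with 0.07 in Ppm1g_R (adjusted p = 0.783) and 0.05 in Ppp2r1b_R (0.857). Hnrph1, which binds G-rich elements, was higher in Bub1b_R (0.35, adjusted p = 2.8e-04), Ppm1g_R (0.20, 0.0259), Ppp2r1b_R (0.21, 0.0209) and Ctrl_R (0.28, 0.00879). Under median scaling it passed in Bub1b_R alone (0.44, adjusted p = 8.75e-04). In the arrays labelled Chek1_R it read 11.60, 11.68 and 11.65 with Dox and 11.57, 11.56 and 11.61 without. The further Hnrph1 probes gave 0.26, 0.25, 0.31 and 0.23 in Bub1b_R and 0.20, 0.16, 0.28 and 0.20 in Ppm1g_R. They gave 0.30, 0.12, 0.10 and 0.37 in Ctrl_R. In Ppp2r1b_R they gave 0.06, 0.13, -0.10 and 0.09, and none passed (adjusted p = 0.544, 0.44, 0.618 and 0.417).

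Different Sm and snRNP genes passed in the arrays labelled Chek1_R and in Ppp2r1b_R, and the difference between these changes was not tested. By the adjusted p alone, 3 of 7 were higher in the arrays labelled Chek1_R, where 15.3% of all genes were. These were Snrpb (0.18), Snrpd1 (0.26) and Snrpd3 (0.27), which all belong to the Sm ring. Snrpb was also higher in Ctrl_R (0.25). In Ppp2r1b_R 3 of 7 were lower, Snrpa, the U1 A protein (-0.17), Snrpd2 (-0.18) and Snrpg (-0.21), where 14.0% of all genes were. The medians of the 7 were 0.18 in the arrays labelled Chek1_R, -0.16 in Ppp2r1b_R, -0.05 in Bub1b_R, -0.10 in Ppm1g_R and 0.08 in Ctrl_R. Every one of the 7 had its confidence interval within 1.5-fold in all 5 clones. The change of Snrpa was negative in all 5 (-0.18 to -0.02), and that of Snrpb positive in all 5 (0.01 to 0.25). Among the 8 SF3 genes, Sf3a3 was higher in Bub1b_R (0.24, adjusted p = 0.00513) and in the arrays labelled Chek1_R (0.26, 0.00168), Sf3b2 was lower in the latter (-0.23, 0.0161), and Sf3b3 was higher in Ctrl_R (0.27, 0.00885). Of the 11 LSm genes, Lsm10, a U7 snRNP protein (0.30), and Lsm8, the subunit that marks the nuclear ring (0.31), were higher in the arrays labelled Chek1_R. In Ppp2r1b_R, Lsm14b (-0.44), Lsm6 (-0.18) and Lsm8 (-0.20) were lower, and Lsm14b was lower in Bub1b_R too (-0.47). Under median scaling Snrpd1, Snrpd3, Sf3a3, Lsm10 and Lsm8 passed in the arrays labelled Chek1_R with the same sign, and Lsm14b alone of the Sm and LSm genes in Ppp2r1b_R. In Ppm1g_R 0 of 11 LSm genes and 0 of 8 SF3 genes passed the adjusted p, and 1 of 7 Sm and snRNP genes did (Snrpa, -0.18). Of all genes 12.7% passed there in each direction.

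The change in Ppm1g_R was also set against the mean change of the other 3 targeted clones. The question was whether Dox withdrawal in the clone of the spliceosome-linked phosphatase differed from withdrawal in the others. In those 3 clones no fall of the measured target on withdrawal was shown. By both limits, 0 of 56 members differed in limma (3.29% of all genes), with 5 at an unadjusted p under 0.05. The share of all genes at that unadjusted limit is not given here. The methods' t-test before adjustment passed 6 members, beside 3710 of 15151 probes. By the adjusted p alone 3 were more positive in Ppm1g_R and 0 more negative (6.72% and 6.32% of all genes): Hnrpdl (0.58, SE 0.08, adjusted p = 2.3e-05), Sfrs3 (0.30, 0.0258) and Sfrs11 (0.27, 0.0366). Hnrpdl lay just under 1.5-fold. It reached between 0.59 and 0.62, and was called, when any 1 of 5 arrays was left out, namely replicates 1 and 2 of Ppm1g_R with Dox, its replicate 3 without Dox, replicate 2 of the arrays labelled Chek1_R without Dox and replicate 2 of Ppp2r1b_R without Dox. Because the mean of the other 3 clones holds the doubted arrays labelled Chek1_R, it was also taken without them and with their change turned, both chosen with the values in view. Without them Hnrpdl was 0.58, Sfrs3 0.50 and Sfrs11 0.29 (adjusted p = 4.1e-04, 0.00305 and 0.0378), with 0 of 56 past both limits. With their change turned Hnrpdl was 0.41, Sfrs3 0.54 and Sfrs11 0.33, 5 were more positive and 1 more negative by the adjusted p alone, and 0 passed both limits. Under median scaling Hnrpdl gave 0.38 (adjusted p = 0.0222), and Sfrs3 (0.15, 0.511) and Sfrs11 (0.11, 0.635) did not pass. The second Hnrpdl probe gave 0.20 (adjusted p = 0.504), and the second Sfrs3 probe 0.15 (0.43). The confidence interval lay within 1.5-fold for 50 of 56 members.

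Clones also differed from Ctrl_R without Dox. Before those values, a split among the arrays has to be stated. The lowest signal called detected was between 12.9 and 20.9 on the 12 arrays for Bub1b_R or Ctrl_R and between 27.8 and 58.1 on the 18 arrays of the other 3 clones, so that for these 3 the clone and the group of arrays cannot be told apart. This grouping rests on that signal alone and is not given by the labels. Since the Ctrl_R arrays were deposited earlier, clone and deposit cannot be told apart in any comparison of levels with Ctrl_R, that of Bub1b_R included. Between 48 and 55 members were detected per array. Without Dox, 1 member was higher and 1 lower than in Ctrl_R in Bub1b_R (23.9% of all genes differed in either direction). In the arrays labelled Chek1_R there were 3 and 0 (29.0%), in Ppm1g_R 5 and 1 (33.5%), and in Ppp2r1b_R 1 and 3 (33.1%). These counts are of the brightest probes, and those of the further probes are given below. Under median scaling the splits were 12 and 0, 6 and 0, 3 and 3, and 1 and 22, and that scaling set the median of all genes at 0.11, 0.08, 0.01 and -0.18. Averaging a gene's probes made them 0 and 2, 3 and 0, 7 and 2, and 4 and 0, so that the split in Ppp2r1b_R turned round. The members' median was 0.15, 0.03, -0.01 and -0.17 with quantile normalisation and 0.31, 0.12, -0.07 and -0.51 with median scaling. Median scaling thus left members higher than the bulk of genes in Bub1b_R and lower in Ppp2r1b_R.

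In Bub1b_R against Ctrl_R, Sfrs14 was 0.73 lower (log2 change -0.73, adjusted p = 5.5e-09, and -0.53 under median scaling, less than 1.5-fold) and Hnrnpa2b1 was higher (0.60, 8.4e-08). Leaving out replicate 3 of Ctrl_R without Dox lowered Hnrnpa2b1 to 0.57. Sfrs2 lay just under the limit (0.58), and leaving out any 1 of the 6 arrays gave 3 or 4 calls. Leaving out replicate 1 of Bub1b_R without Dox raised the count from 2 to 4, with Sfrs2 (0.60) and Sf3b4 (0.59) added. Sfrs14 was lower in Ppm1g_R too (-0.75, adjusted p = 3.2e-09). Sfrs3 was higher there (0.79, adjusted p = 2.5e-09), as were Hnrpab (0.75) and Hnrpm (0.74), both hnRNPs of the transcript coat, and Hnrpu (1.07, 3.1e-05). Under median scaling Hnrpab (0.19, adjusted p = 0.142) and Hnrpm (0.48, less than 1.5-fold) lost their calls there, and Hnrnpc (-0.67) and Snrpd2 (-0.72) became lower calls. Snrpd3 (0.62, adjusted p = 1.5e-07) and Hnrpm (0.61) were higher in the arrays labelled Chek1_R. Hnrpk, which binds poly(C) (-0.63), Lsm12 (-0.77) and Sf3b4 (-0.87, adjusted p = 1.8e-04) were lower in Ppp2r1b_R. Hnrpm in the arrays labelled Chek1_R came to 0.58, just under the limit, without their replicate 2 without Dox, and Hnrpk in Ppp2r1b_R to -0.58 without its replicate 3 without Dox. Sfrs12ip1 was not detected in Ctrl_R without Dox and was at least 1.86-fold higher in Ppm1g_R, 2.08-fold in Ppp2r1b_R and 1.41-fold in the arrays labelled Chek1_R, taking the lowest detected signal in place of the undetected value. In Ppp2r1b_R the count went from 4 to 7 without its replicate 1 without Dox, or without replicate 3 of Ctrl_R without Dox, with Hnrpf and Snrpd2 added both times.

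With Dox, meant to switch on the rescue copy, clones already differed from Ctrl_R. There were 3 members higher and 0 lower in Bub1b_R (6.88% and 6.44% of all genes), 2 and 0 in the arrays labelled Chek1_R (9.88% and 7.86%), 5 and 0 in Ppm1g_R (14.7% and 14.1%), and 3 and 2 in Ppp2r1b_R (14.5% and 13.0%). This comparison was chosen with the values in view. Under median scaling the splits were 8 and 0, 2 and 0, 5 and 0, and 2 and 11, and that scaling set the median of all genes at 0.08, 0.01, 0.05 and -0.18. Averaging a gene's probes made them 2 and 1, 4 and 0, 5 and 1, and 6 and 0. Sfrs3 was higher with Dox in Bub1b_R (0.83, adjusted p = 3.6e-09) and Ppm1g_R (1.00, 6.9e-11), and Hnrpk was lower in Ppp2r1b_R (-0.68, 1.3e-05). Sfrs16 was higher in the arrays labelled Chek1_R (0.73), Ppm1g_R (0.90) and Ppp2r1b_R (0.76). Hnrpu, not detected in Ctrl_R with Dox, is also among the members counted in these 3 clones, at least 2.05-fold higher in Ppm1g_R but only at least 1.03-fold in Ppp2r1b_R and 1.08-fold in the arrays labelled Chek1_R. Sfrs3 in Ppm1g_R and, by its brightest probe, Hnrpk in Ppp2r1b_R differed from Ctrl_R both with and without Dox. Without replicate 3 of Ppp2r1b_R with Dox, Hnrpk there came to -0.57, just under the limit, and the count went from 5 to 3.

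**Figure D4:**
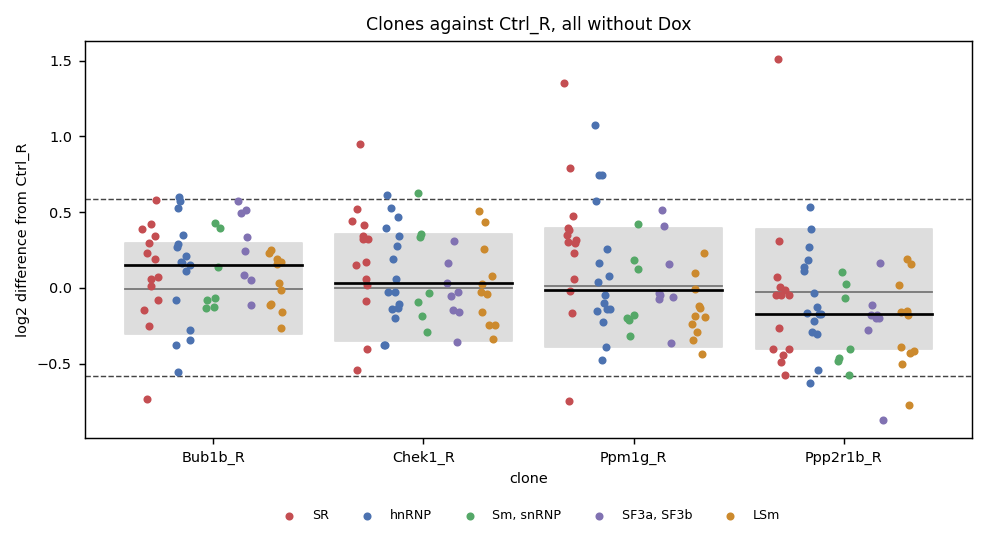
Log2 difference of each of 56 splicing factors between a targeted clone and Ctrl_R without Dox, 1 point a gene coloured by family, by clone. Black lines are member medians (0.15, 0.03, -0.01 and -0.17), grey boxes and lines the quartiles and median of all 11177 genes, and dashed lines mark 1.5-fold.

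Pairs of the 3 clones with the 18 arrays of higher lowest signal were compared without Dox, likewise chosen with the values in view. Against Ppp2r1b_R, Ppm1g_R had 6 members higher and 0 lower (9.36% and 11.0% of all genes): Sfrs3 (1.28, adjusted p = 1.1e-12), Sf3b4 (1.03), Hnrnpa2b1 (0.74), Sfrs2 (0.74), Sfrs6 (0.63) and Sfrs12, now Srek1. Sfrs12 was not detected in Ppp2r1b_R and was at least 1.27-fold higher, less than the limit of 1.5. The arrays labelled Chek1_R had 5 higher and 0 lower against Ppp2r1b_R (5.99% and 7.85%), Sfrs3 (0.91), Lsm14b (0.76), Sf3b4 (0.71), Snrpd3 (0.60) and Sfrs2 (0.59). Ppm1g_R against the arrays labelled Chek1_R gave 1 and 0 (4.03% and 3.72%), Hnrpu (0.61), which lost the call when any 1 of 3 arrays was left out, replicate 1 of Ppm1g_R and replicates 2 and 3 of the arrays labelled Chek1_R. Under median scaling the splits of these pairs were 17 and 0, 35 and 0, and 1 and 0, and the median of all genes was 0.15, 0.23 and -0.08. The 5 calls of the second pair became 8 without replicate 1 of either clone and 3 without replicate 3 of the arrays labelled Chek1_R. Sfrs3 was thus lowest in Ppp2r1b_R of these 3 clones by more than the 1.5-fold limit.

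A further 28 probes for 20 of the genes passed the detection rule, and some disagreed with the brightest probe. On withdrawal 0 of the 28 changed in Bub1b_R, the arrays labelled Chek1_R, Ppm1g_R and Ctrl_R, and in Ppp2r1b_R 1 rose, for Lsm12 (0.60), and 1 fell, for Lsm14b (-0.77). The disagreement was larger between clones. Without Dox, 2 of the 28 were higher and 1 lower than in Ctrl_R in Bub1b_R. In the arrays labelled Chek1_R there were 8 and 1, in Ppm1g_R 10 and 2, and in Ppp2r1b_R 5 and 2. Of all genes 23.9%, 29.0%, 33.5% and 33.1% differed in these 4 clones. With Dox the further probes gave 2 and 1, 6 and 1, 9 and 1, and 6 and 1. Of all genes 6.88% and 6.44%, 9.88% and 7.86%, 14.7% and 14.1%, and 14.5% and 13.0% were higher and lower with Dox in these clones. Without Dox the second Hnrnpa2b1 probe was higher than in Ctrl_R by 1.89 in Ppm1g_R, 1.68 in Ppp2r1b_R and 1.55 in the arrays labelled Chek1_R, but by 0.15 in Bub1b_R (adjusted p = 0.425). Between Ppm1g_R and Ppp2r1b_R it differed by 0.21 (adjusted p = 0.234). A second Hnrpa1 probe, for the hnRNP A1 that often opposes SR proteins, was lower in all 4 clones (-0.96, -1.14, -1.71 and -1.24), where the brightest gave -0.38, 0.34, 0.04 and 0.11. None of the 3 lower members in Ppp2r1b_R kept its call when probes were averaged, with -0.19 (adjusted p = 0.0403) for Hnrpk, -0.02 (0.834) for Lsm12 and -0.24 (0.0625) for Sf3b4. Hnrpm in the arrays labelled Chek1_R came to 0.44.

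Genes that work with these families were read from lists. Of 48 genes of the spliceosome core and its helicases, 0 changed on withdrawal in Bub1b_R, the arrays labelled Chek1_R and Ctrl_R. In Ppm1g_R 1 fell, the helicase Dhx16 (-0.60, adjusted p = 6.4e-04), and in Ppp2r1b_R 1 rose, Prpf39, a U1 snRNP factor (0.62, 0.0043), where 4.63% and 4.97% of all genes changed. Dhx16 was lower without Dox in Bub1b_R too, short of 1.5-fold (6.88, 6.84 and 6.63 with Dox, 6.24, 6.32 and 6.26 without). Its mean change over the 4 targeted clones was -0.40, so the fall was not particular to Ppm1g_R. Fitted only on the arrays compared, or under median scaling, 1 of the 48 again fell in Ppm1g_R and 0 changed in Ppp2r1b_R. Of 35 splicing regulators, 2 rose in Bub1b_R, Rbmx (1.31, adjusted p = 1.2e-09) and Syncrip (0.78), the hnRNP proteins G and Q, which the names used here do not take in, beside 6.24% of all genes. Syncrip was also higher without Dox in Ctrl_R, at 6.83, 6.85 and 6.87 with it and 7.34, 7.37 and 7.35 without. Relative to Ctrl_R, the change of Rbmx in Bub1b_R was 1.10 (limma, adjusted p = 1.6e-05). Among the changes in the arrays labelled Chek1_R were a rise of Rbmx (0.80) and a fall of Mbnl2 (-0.62), and 9.92% of all genes changed there. Under median scaling 0 of the 35 fell there. In Ppm1g_R, Ppp2r1b_R and Ctrl_R 0 of the 35 changed. Of the 15 SR kinases and phosphatases other than Ppm1g, 0 changed in any clone, and of 15 genes of the SMN complex, which loads Sm rings onto snRNA, 0 changed. In Ppp2r1b_R 7 of those 15 were lower by the adjusted p alone, where 14.0% of all genes were, and the median of the 15 was -0.20, beside -0.01 for all genes. Fitted only on the 6 arrays of the clone, 3 of the 15 passed (3.63% of all genes were lower), and under median scaling 4 did (7.09%).

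Cell type markers changed in the same clones. Pou5f1, Sox2 and Nanog were detected on all 30 arrays. Of 7 ESC markers, 2, 2, 1, 2 and 0 fell on withdrawal in Bub1b_R, the arrays labelled Chek1_R, Ppm1g_R, Ppp2r1b_R and Ctrl_R, such as Fgf4 by 0.96 in Bub1b_R and 0.75 in Ppm1g_R. Of 4 early differentiation markers, 4, 4, 3, 2 and 1 rose, among them T (2.31, 4.44, 1.05, 1.90 and 0.75). The other call in Ppp2r1b_R, Eomes, was not detected there in either condition. The T probe gave the highest signal of the 4 without Dox in all 5 clones, although probes do not share a scale. Their summed signal without Dox was 4350, 4539 and 4484 in Bub1b_R, 2537, 2318 and 2417 in the arrays labelled Chek1_R, 1812, 1731 and 1669 in Ppm1g_R, 1112, 1226 and 1049 in Ppp2r1b_R and 178, 173 and 161 in Ctrl_R, each above the values with Dox. Of 8 fibroblast feeder markers 4 were detected, and Col1a2, Col5a2, Lum and Postn were at 0 of 30 arrays. The summed signal of the 4 lay between 417 and 669 on all 30 arrays, the highest in Ctrl_R, and the Thy1 probe gave the highest signal. Dcn, detected on 12 of 30 arrays, rose by 0.68 in Bub1b_R, and by at least 1.25-fold in Ppm1g_R, 1.31-fold in Ppp2r1b_R and 1.91-fold in the arrays labelled Chek1_R, where it was not detected with Dox, and Col1a1, detected on all 30 arrays, rose in Ppm1g_R (0.91), Ppp2r1b_R (1.03) and the arrays labelled Chek1_R (1.06), with 0.58 in Bub1b_R, just under the limit, and -0.12 in Ctrl_R. Thy1 fell in the arrays labelled Chek1_R (-0.81) and in Ppm1g_R (-0.61). The part of these markers in the splicing factor differences was not tested.

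Promoters were read for a feature the names do not use. RefSeq promoters (GRCm38.p6, 250 bases before to 50 after a start) were matched for 48 of the 55 genes, in 64 windows. The letters CCGGAAG, the core of an ETS factor motif, stood on either strand in 34.4% of the members' windows, beside 15.5% of the windows of all tested genes and 8.86% of all windows. The letters CCAAT stood in 43.8%, 37.5% and 37.4%, and TATAAA in 10.9%, 7.71% and 13.6%. By gene, 15 of 48 members (31.2%) and 18.5% of tested genes matched by their printed name had the ETS letters. The 3 SF3a subunits, which work as 1 complex, are shown, with the letters or their reverse complement in capitals. A match is a description of these letters, and no binding was measured.
Sf3a1, chr11:4160337-4160353, + strand: gagggcgggaCCGGAAG
Sf3a2, chr10:80798649-80798675, + strand: gcctttgctcCCGGAAGggatcgcttc
Sf3a3, chr4:124714761-124714787, + strand: ccccaagacaCTTCCGGgacacgcgga
On withdrawal these 3 genes did not pass both limits in any clone.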

How the data were processed

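The authors deposited 1 table from Illumina Mouse WG-8 v2 arrays, with a non-normalised signal intensity and a detection p-value for each probe and array (25697 probes, 30 arrays). The submitters' notes name lumi, without a version, and the sources used here do not give an array normalisation. In the detection p-values of 1 array each of Ppm1g_R and Bub1b_R without Dox, some cells held dates. Those with a clock time (28 and 6) were converted back as part of a day, and the others (18 and 8) took the value of the probe closest in signal on the same array.

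Here intensities were background-corrected and quantile-normalised (neqc, offset 16) and probes detected at p under 0.05 on 3 or more arrays were kept (15151). One limma model (limma 3.58.1, R 4.3.3) with a mean for each of 10 conditions (20 residual and 3.38 prior degrees of freedom) gave log2 changes, 95% confidence intervals and p-values, adjusted over all probes by Benjamini-Hochberg. Changed means that the adjusted p was under 0.05 and the change 1.5-fold or more. The number of arrays limits the precision. The code was tested on simulated data.

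The members and lists were chosen with earlier results of these data known. Genes were named by rule: those with shRNAs in the study, the largest changes past both limits in each comparison, the brightest of each family, and, added after seeing the data, members past the adjusted p in at least 3 clones. Other names were chosen after their values were seen. Alternatives were the background, offset, scaling, filter, fold limit, probe rule, arrays in the fit, the methods' t-test, a replicate block, and each array left out. A result for a splicing regulator is not reported here.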

Additional observations from a re-analysis of the deposited data

Results flagged for a closer look

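The change of Sfrs3 on Dox withdrawal in Ppp2r1b_R differed from that in Ctrl_R by -0.87 on the log2 scale (limma, adjusted p = 1.2e-05), a difference between clones under the same contrast. Sfrs3 was 0.40 lower without Dox in Ppp2r1b_R (log2 change -0.40) and 0.47 higher in Ctrl_R, in 9 of 9 pairs of arrays each. Leaving out 1 array at a time gave between -0.95 and -0.83.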

How the results depend on the processing

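The 56 members were compared under each alternative with the values above, in the comparisons chosen with the values in view too. Without background correction 2 members were called on withdrawal in the arrays labelled Chek1_R (Sfrs8 and Lsm11) and 1 in Ctrl_R (Hnrpu), none of them detected with Dox there. Under median scaling 1 changed in Ppm1g_R relative to Ctrl_R (Sfrs16, -0.61), and 12, 6 and 23 differed from Ctrl_R without Dox in Bub1b_R, the arrays labelled Chek1_R and Ppp2r1b_R; the median change on withdrawal was 0.15 in the arrays labelled Chek1_R and -0.10 in Ppm1g_R. Keeping probes detected at p under 0.01 throughout 1 condition, the median in Bub1b_R was -0.0090, of the opposite sign. A 2-fold limit left 0 calls in Ppp2r1b_R relative to Ctrl_R, and 0, 0, 2 and 1 against Ctrl_R without Dox in Bub1b_R, the arrays labelled Chek1_R, Ppm1g_R and Ppp2r1b_R. With no fold limit 10, 18, 11, 13 and 5 members passed on withdrawal, 5, 9, 1 and 7 relative to Ctrl_R, 27, 30, 34 and 34 against Ctrl_R without Dox, and 3 in Ppm1g_R against the other 3 clones. For levels against Ctrl_R without Dox, the share of all genes with no fold limit is not given here. By the methods' t-test after adjustment, 23, 27, 26 and 29 members passed there, beside 6844, 7676, 7902 and 7799 of 15151 probes. With Dox against Ctrl_R, the calls in Bub1b_R, the arrays labelled Chek1_R, Ppm1g_R and Ppp2r1b_R, which were 3, 2, 5 and 5, became 0, 0, 1 and 0 at the 2-fold limit and 21, 22, 31 and 29 with none. They became 8 in the first and 13 in the last under median scaling, 4 and 9 in the second and the last without background correction, 0 and 2 in the same clones with an offset of 50, 4 in the second with probes averaged, and in the last 3 on the arrays compared and 2 by the methods' t-test. Between clones without Dox, the 6 calls of Ppm1g_R and Ppp2r1b_R became 17 under median scaling, 2 at the 2-fold limit and 37 with none; the 5 of the arrays labelled Chek1_R and Ppp2r1b_R became 35, 0 and 37 in that order, and 3 with an offset of 50; and the 1 of Ppm1g_R and the arrays labelled Chek1_R became 0 and 18 with the fold limits, 0 with that offset and 0 by the methods' t-test. Fold limits act by construction, and for the other settings the cause was not tested.

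Leaving out 1 array at a time gave 0 to 1 calls on withdrawal in Bub1b_R and in Ppp2r1b_R, 0 to 1 in Bub1b_R and in Ppm1g_R relative to Ctrl_R, 1 to 2 in Ppp2r1b_R relative to it, 0 to 1 in Ppm1g_R against the other 3, and, against Ctrl_R without Dox, 3 to 4 in Bub1b_R and 4 to 7 in Ppp2r1b_R. With Dox it gave 2 to 4, 2 to 3, 4 to 7 and 3 to 7 in the clones' order, and between clones 6 to 7 for Ppm1g_R and Ppp2r1b_R, 3 to 8 for the arrays labelled Chek1_R and Ppp2r1b_R and 0 to 1 for Ppm1g_R and the arrays labelled Chek1_R. Over all comparisons with alternatives, 334 counts stayed within 1.5 times and 81 moved. For the medians, 57 stayed within the spread of the arrays and 3 moved. Of the named values, 1146 were labelled the same, 84 weaker and 33 stronger. The 1 that changed sign was Sf3b4 in Ppp2r1b_R against Ctrl_R with Dox, which was 0.0863 with probes averaged. Averaging a gene's probes turned the split in Ppp2r1b_R, set against Ctrl_R without Dox, from 1 higher and 3 lower to 4 and 0.

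The methods' t-test, at its threshold before adjustment, passed 24, 19, 11, 14 and 14 members on withdrawal, and after Benjamini-Hochberg 10, 8, 3, 2 and 0, in the clones' order above. Of all 15151 probes it passed 4959, 5461, 4312, 3696 and 2713 before adjustment and 2467, 3116, 1299, 545 and 59 after it. For Ppm1g_R against the other 3 clones it passed 6 and 3 members, beside 3710 and 1746 probes. Against Ctrl_R with Dox, 18, 16, 27 and 18 members passed after adjustment, beside 4266, 5382, 8034 and 6650 probes. Between clones without Dox, 18, 25 and 1 members did, beside 4947, 4266 and 2016 probes, with the pairs in the order above. Fitted only on the arrays compared, none of the 13 members that passed the adjusted p on withdrawal in Ppp2r1b_R did, Sfrs14 (0.0758) and Sfrs3 (0.0572) among them. Over all genes, the 1442 higher and 1564 lower there became 458 and 406 in that fit. With the means of all probes of a gene, Hnrnpa2b1 in Bub1b_R against Ctrl_R was 0.37. With an offset of 50, Sfrs12ip1 in the arrays labelled Chek1_R was 0.53 and Sf3b4 in Ppp2r1b_R -0.56. Without the arrays labelled Chek1_R none of the 15 counts run moved beyond 1.5 times, that of Ppm1g_R against Bub1b_R and Ppp2r1b_R included, and turning their change left 0 calls in that comparison.

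The replicate block left 0 calls on withdrawal in each clone, 0, 0, 0 and 1 relative to Ctrl_R, 2, 3, 6 and 4 against Ctrl_R without Dox and 0 for Ppm1g_R against the other 3, and it moved no count with Dox or between clones. Replicate numbers did not pair the arrays: of 15 same-numbered pairs with and without Dox, 1 had a correlation of deviations from the condition means over 0.1, the correlations ran from -0.0835 to 0.131, and 6 pairs correlated best with their own number. Lsm11, Sfrs8, Sf3b1 and Hnrph2 were below detection on most arrays, which limits their values.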
